A study of Mus musculus with 407 samples.

Results

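The heavy chains of muscle myosin were followed in 4 muscles of ageing mice. The genes were taken by symbol: Myh1, Myh2, Myh3, Myh4, Myh6, Myh7, Myh7b, Myh8 and Myh14, which are 9 of the 24458 gene symbols counted, and all 9 passed the filter on low counts in every fit. RNA of soleus, tibialis anterior, gastrocnemius and diaphragm was sequenced from male and female C57BL/6J mice, with no treatment. The youngest mice were 6 and 12 months old, the middle groups 18, 21 and 24 months, and the oldest 27 months. The 407 libraries form 48 groups of 6 to 10, each a muscle of 1 sex at 1 age. Mice were bought from Jackson Laboratory at various ages and kept in a holding facility for about 12 weeks. Muscles of mice of the same age were collected on a single day, so age and day of collection cannot be told apart. No label used here ties the 4 muscles to a mouse, and p-values measure the spread between libraries of a group.

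A myosin heavy chain carries the motor head that binds actin and splits ATP, and the tail that packs into the thick filament. Adult fibres are classed by the heavy chain they hold: slow type I fibres hold the product of Myh7, type 2A that of Myh2, type 2X that of Myh1 and the fastest, type 2B, that of Myh4. Myh3 and Myh8 encode the embryonic and the neonatal heavy chain, made in development and again in regenerating fibres. Myh6 encodes the alpha heavy chain of the heart, Myh7b an ancient slow heavy chain, and Myh14 a nonmuscle heavy chain, myosin IIC.

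In assembly GRCm38 the developmental and fast genes stand side by side on the plus strand of chromosome 11. From 5′ to 3′ they are Myh3 at chr11:67078273-67102291, Myh2 at chr11:67171027-67197517, Myh1 at chr11:67200102-67224577, Myh4 at chr11:67237812-67260447 and Myh8 at chr11:67277124-67308634. Myh6 (chr14:54941921-54968017) and Myh7 (chr14:54970684-54994626) are neighbours on the minus strand of chromosome 14. Myh7b lies on the plus strand at chr2:155611243-155634307 and Myh14 on the minus strand at chr7:44605803-44670872. These genes have 39 to 42 exons and coding lengths of 5805 to 6099 bases. The coding sequences of Myh6 and Myh7 were identical at 91.66% of aligned bases and those of Myh1 and Myh2 at 90.95%, while that of Myh14 matched the others at 53.66% to 54.99%. Some windows of 76 bases, the length of a read, also stand in another gene. They made up 16.66% of Myh1, 16.14% of Myh2, 15.37% of Myh6, 15.31% of Myh7, 12.59% of Myh8, 9.376% of Myh4 and 1.808% of Myh3, and 0% of Myh7b and Myh14. The sources used here do not say how reads from such windows were counted, so a low value of a gene with an abundant close relative is uncertain.

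The promoters of the 5 neighbours on chromosome 11 are shown because they are 3 of the 4 adult genes and both developmental genes. Each line is the 120 bases before the start of the gene in the RefSeq promoter table (GRCm38.p6), on the strand of the gene, 5′ to 3′. For Myh3 that start lies a short way inside the gene as given above, so the last bases of its line, with part of the TATA box, are within the annotated gene. Capitals mark, within these bases, a TATA box (TATAAA), an MCAT element (CATTCC), a MEF2 site or a CArG box, each searched on both strands in the 250 bases before the start.
Myh3, chr11:67078180-67078299: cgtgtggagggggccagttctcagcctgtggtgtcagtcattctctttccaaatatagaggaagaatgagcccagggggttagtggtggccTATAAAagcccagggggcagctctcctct
Myh2, chr11:67170907-67171026: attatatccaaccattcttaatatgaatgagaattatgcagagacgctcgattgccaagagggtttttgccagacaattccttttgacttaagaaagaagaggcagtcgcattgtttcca
Myh1, chr11:67199982-67200101: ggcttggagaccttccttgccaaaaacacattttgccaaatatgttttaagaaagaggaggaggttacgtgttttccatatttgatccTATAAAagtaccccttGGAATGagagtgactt
Myh4, chr11:67237692-67237811: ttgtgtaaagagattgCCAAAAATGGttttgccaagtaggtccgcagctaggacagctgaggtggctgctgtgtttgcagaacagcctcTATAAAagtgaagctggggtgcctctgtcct
Myh8, chr11:67277004-67277123: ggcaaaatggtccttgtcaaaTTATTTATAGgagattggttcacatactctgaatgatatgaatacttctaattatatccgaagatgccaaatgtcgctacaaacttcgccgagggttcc
A TATAAA stood at positions -29 to -24 of Myh3, -32 to -27 of Myh1 and -31 to -26 of Myh4. Myh8 held a MEF2 match at -99 to -90, whose letters include a TATA box of the other strand, and the same MEF2 letters stood further from the start in Myh1 (-211 to -202) and Myh4 (-182 to -173). A CArG match was found in Myh4 (-104 to -95), and MCAT matches in Myh1 (-16 to -11) and, before the bases shown, Myh4 (-231 to -226). Myh4 also held a TATAAA at -213 to -208, before the bases shown. Of 32851 promoters searched over the same length, 12.4% held the TATA box, 12.6% MCAT, 2.92% MEF2 and 1.47% CArG. An E-box (CANNTG), which 66.2% of promoters held, is left in lower case. Of the 5 neighbours it was found in Myh3 (-191 to -186), Myh4 and Myh8. Outside chromosome 11, E-boxes stood before Myh6, Myh7, Myh7b and Myh14, and MCAT matches before Myh6 and Myh7. A MEF3 site (TCAGGTT, 3.49% of promoters) was found in no gene of the 9. No letters of the search stood before Myh2.

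Inside 3 of the genes lie microRNAs of muscle, shown in RNA letters with the seed, bases 2 to 8, in capitals: miR-499 within Myh7b (chr2:155622893-155622913), miR-208a within Myh6 (chr14:54949072-54949093) and miR-208b within Myh7 (chr14:54975710-54975731).
miR-499-5p: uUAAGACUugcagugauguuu
miR-208a-3p: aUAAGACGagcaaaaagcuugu
miR-208b-3p: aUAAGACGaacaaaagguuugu
The miR-208a and miR-208b seeds are the same. All 3 microRNA rows, Mir499, Mir208a and Mir208b, were at 0 counts in every library. By the limit of 3 counts, for counting error only, a row at 0 allows at most 0.00788 to 0.0783 CPM (counts scaled to the library total). The mature microRNAs are shorter than a read. Whether these libraries of total RNA and the gene model could count them was not tested. The 0 counts therefore give no level of the mature microRNAs and do not show that they were absent.

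Total counts on genes ran from 38583802 to 300089909 per library (median 72766895). Levels are CPM with library sizes scaled by TMM, a trimmed mean of M values, given for each group as the lowest, the median and the highest library. Fibre markers (Acta1, Ckm, Mb, Des, Pygm and Ryr1, 6 of 6 measured) summed to 13500 to 61600 CPM in the limb muscles and to a median of 11500 CPM in the diaphragm. In 7 of 98 diaphragm libraries this sum was below 0.5 of that median, from 667 CPM (male, 6 months, replicate 2) to 4980 CPM. In those 7 libraries Myh14 lay between 0.809 and 11.7 CPM, under every one of the other 91 diaphragm libraries (15.4 to 58.8), and Myh7b had a median of 1.3 CPM against 4.75. Changes of the diaphragm at 27 months were therefore also computed without them, a choice made after the data were seen. Liver markers (7 of 7) reached 26600 CPM in the male diaphragm library of replicate 3 at 21 months. In male diaphragm at 27 months the highest library held 10400 CPM of them, where the median was 1.3 CPM. The part of that library in the changes at 27 months was not tested. Heart markers (Nppa, Nppb, Myl7 and Tnni3, 4 of 4) did not exceed 2.59 CPM in any library. The remaining marker lists, all measured in full, ranged over all libraries and muscles from 1.36 to 216 CPM for adipocytes, 18.9 to 261 for nerve, 8.22 to 267 for smooth muscle, 22.5 to 520 for tendon, 2.62 to 54.1 for blood and 3.25 to 238 for satellite and immune cells. In these bulk samples fewer fibres of a type and less RNA per fibre cannot be told apart.

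At 6 months the 4 adult genes gave each muscle its own make-up. Myh7, the slow gene, was high in the soleus and close to absent from the tibialis anterior. It read 3800, 4735 and 6424 CPM (lowest, median, highest) in male soleus and 5028, 6627 and 8202 CPM in female soleus, against 1.46, 1.85 and 11.4 CPM in male and 1.37, 10.2 and 16 CPM in female tibialis anterior. The groups lie far apart. The log2 difference, soleus minus tibialis anterior, was 10.54 ± 0.46 (SE, 8 libraries each; 1490-fold; edgeR adjusted p = 1.01e-18) in males and 9.55 ± 0.44 (752-fold; adjusted p = 5.38e-18) in females. All such tests were made with edgeR (quasi-likelihood F), the p-values were adjusted over every gene tested by the Benjamini-Hochberg method, and a difference was called where the adjusted p was below 0.05. The gastrocnemius (medians of 179.8 CPM in males and 439.9 in females) and the diaphragm (521.4 and 425.8) lay between.

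Myh4, the gene of the fastest fibres, ran the other way. It read 44530, 46260 and 50350 CPM in male gastrocnemius and 30310, 33900 and 37650 in male tibialis anterior, and 251.1, 801.9 and 2136 CPM in male diaphragm. Diaphragm lay below both of these muscles without overlap in each sex. The log2 difference, diaphragm minus gastrocnemius, was -5.68 ± 0.75 (adjusted p = 8.24e-08) in males and -7.67 ± 0.61 (adjusted p = 1.49e-12) in females. In soleus Myh4 was scattered among mice of the same age, from 9.36 to 1926 CPM in males and 15.2 to 1163 CPM in females. Gastrocnemius and tibialis anterior did not differ for it in the test, at 0.47 ± 0.62 in males (adjusted p = 0.724) and 0.53 ± 0.46 in females (adjusted p = 0.498). Between diaphragm and soleus of females the direction of the Myh4 difference depended on the tool: -1.41 ± 0.47 with edgeR (adjusted p = 0.011) and 1.954 with DESeq2 (adjusted p = 0.0132), and the group medians were 145.7 CPM in diaphragm and 529.1 CPM in soleus.

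Myh2 and Myh1, the genes of types 2A and 2X, were high in other places. Myh2 was highest in soleus (7590, 7995 and 8736 CPM in males, 4489, 5215 and 6673 in females) and lowest in male tibialis anterior (310.4, 717.4 and 1028 CPM). The soleus and tibialis anterior of males did not overlap, at a log2 difference of 3.53 ± 0.20 (adjusted p = 4.9e-16), and in females the difference was 1.00 ± 0.21 (adjusted p = 0.000123). Myh1 was highest in tibialis anterior (7025, 9825 and 11030 CPM in males, 9237, 10760 and 11890 in females), above gastrocnemius (medians of 1975 and 2355 CPM) without overlap, and the log2 difference, gastrocnemius minus tibialis anterior, was -2.21 ± 0.25 in males (adjusted p = 1.24e-07) and -2.08 ± 0.18 in females (adjusted p = 2.01e-10). In the diaphragm its medians were 5968 CPM in males and 3644 in females. Its lower level in male diaphragm than in tibialis anterior, a log2 difference of -0.72 ± 0.24 (adjusted p = 0.0106), became 0.116 when libraries were scaled by their totals alone.

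**Figure D1:**
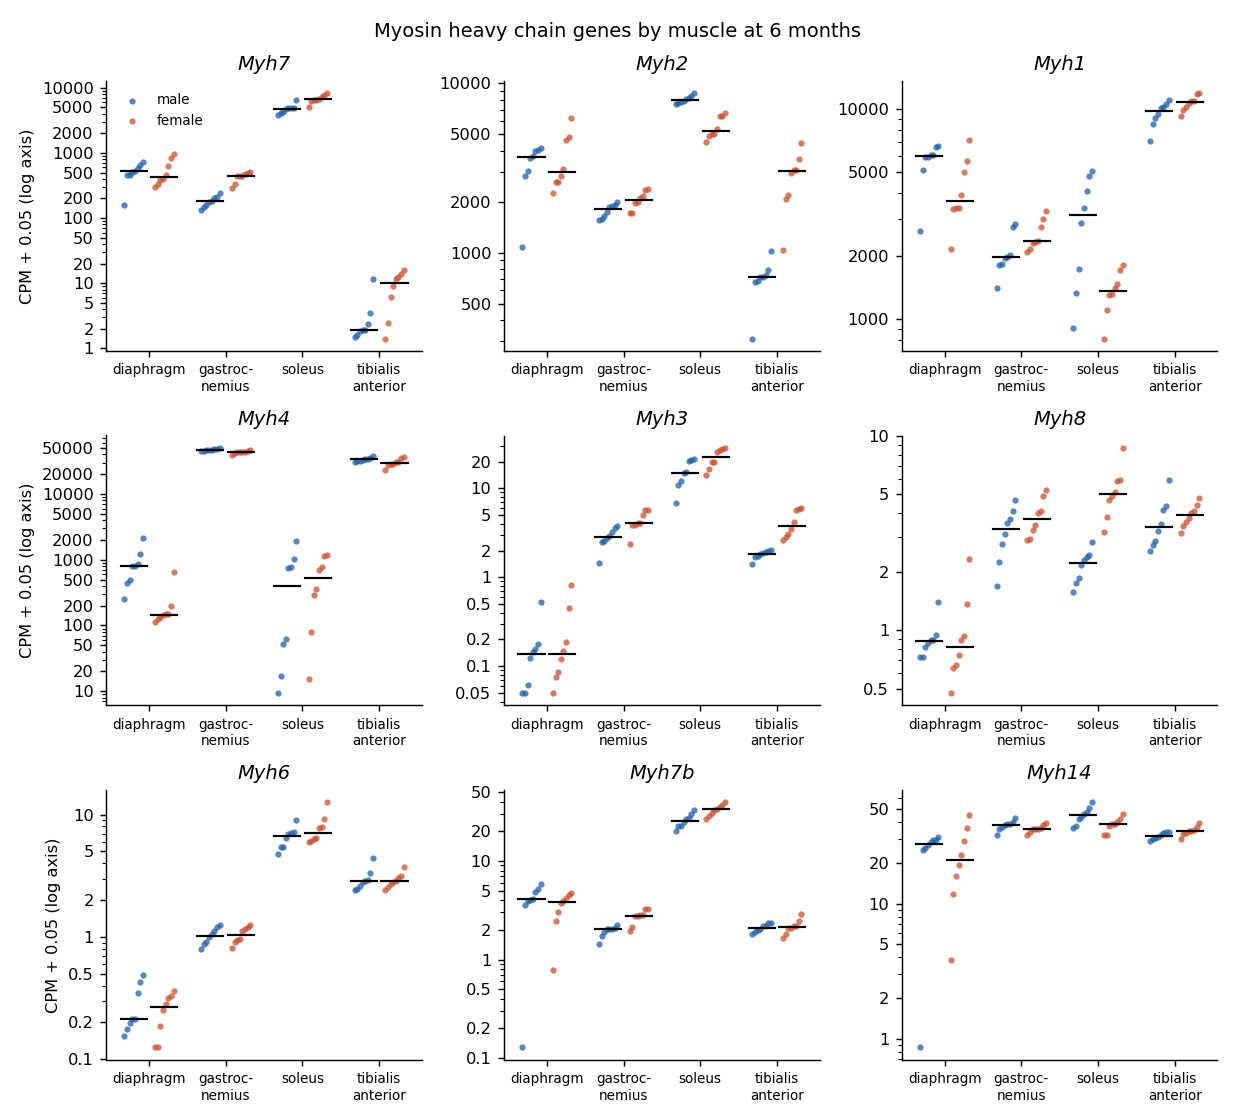
CPM plus 0.05 (log axis) of each of the 9 genes at 6 months in the 4 muscles; each point is a library, sorted by level within its group (8 libraries each), blue for male and orange for female, and black bars are medians. Myh7 spans from a median of 1.85 CPM in male tibialis anterior to 6627 CPM in female soleus, Myh4 in soleus is scattered from 9.36 to 1926 CPM in males, and 1 male diaphragm library lies far below the rest for Myh7b and Myh14.

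Divided by coding length, the 4 adult genes can be set against each other within a library, which needs no library size. Their shares are means ± SD over libraries and are given without a test. Gastrocnemius at 6 months was 92.1% ± 1.05 Myh4 in males and 89.7% ± 0.94 in females (n = 8 each), and tibialis anterior 76.6% ± 3.58 and 68.75% ± 5.015. Diaphragm was mostly Myh1 (55.2% ± 4.24 and 49.1% ± 2.53) and Myh2 (31.65% ± 4.29 and 42.1% ± 2.54). In male soleus Myh2 led with 49.45% ± 5.16 and Myh7 had 29.2% ± 4.77, whereas in female soleus Myh7 led with 47.6% ± 6.57 and Myh2 had 38.9% ± 4.86. The 9 genes together took up 4.06% and 4.03% of all counts in male and female gastrocnemius, 3.37% and 3.44% in tibialis anterior, 1.66% and 1.67% in soleus and 1.49% and 1.41% in diaphragm, as means over all ages.

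**Figure D2:**
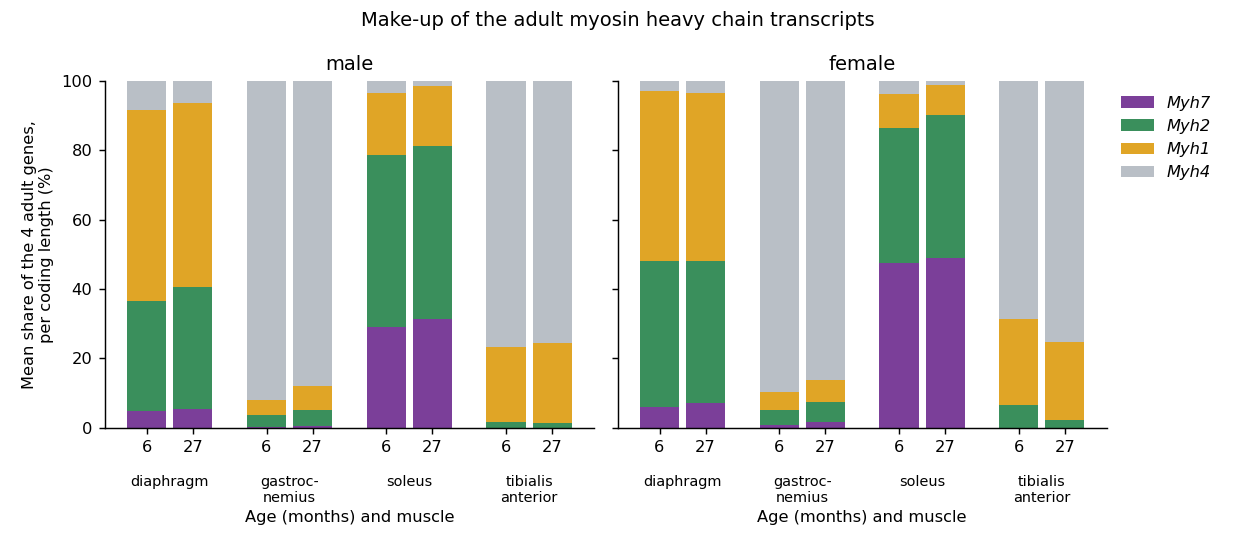
Mean share (%) of Myh7, Myh2, Myh1 and Myh4 in their sum per coding length, for each muscle at 6 and 27 months, males on the left and females on the right (8 libraries a bar at 6 months, 10 at 27). Gastrocnemius and tibialis anterior are mostly Myh4 at both ages, and the Myh2 band of female tibialis anterior narrows from 6.56% to 2.26%.

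The genes of low level had their own order of muscles. Embryonic Myh3 was highest in soleus (6.76, 15 and 21.6 CPM in males, 14.1, 22.7 and 28.6 in females) and near 0 in diaphragm (0, 0.0853 and 0.472 CPM in males, 0, 0.0861 and 0.77 in females), and no diaphragm library reached a soleus library. The log2 difference, diaphragm minus soleus, was -6.97 ± 0.43 (adjusted p = 8.39e-15) in males and -6.84 ± 0.46 (adjusted p = 8.4e-14) in females. Over all ages 6 diaphragm libraries were at 0 counts, which allows up to 0.0365 to 0.0783 CPM. Neonatal Myh8 was lowest in diaphragm too, at medians of 0.826 CPM in males and 0.769 in females against 2.18 to 4.97 CPM in the limb muscles.

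Myh6, the heart gene, was also highest in soleus (4.68, 6.64 and 9.01 CPM in males) and lowest in diaphragm (0.104, 0.165 and 0.44 CPM), a log2 difference of -4.77 ± 0.23 in males (adjusted p = 2.74e-17) and -5.26 ± 0.23 in females (adjusted p = 3.13e-18). Diaphragm held more Myh7 than tibialis anterior (medians of 521.4 and 1.85 CPM in males) and less Myh6 (0.165 and 2.81 CPM). Windows of read length that also stand in Myh7 made up 15.37% of Myh6. The part of reads from such windows in the level of Myh6 was not tested. The heart markers summed to at most 1.18 CPM in male and 0.856 CPM in female diaphragm. The part of heart tissue in the level of Myh6 was not tested. Myh7b, the ancient slow gene, was 20.1, 25.7 and 32.6 CPM in male soleus and 1.77, 2.05 and 2.32 CPM in male tibialis anterior, with no overlap and a log2 difference of 3.67 ± 0.30 (adjusted p = 6.06e-12). Nonmuscle Myh14 varied least, with medians from 21 CPM in female diaphragm to 45.1 CPM in male soleus, and no pair of limb muscles differed for it in the test. Without the diaphragm libraries low in fibre markers, which share the fit, each pair of limb muscles was called in males. The differences were -0.279 (gastrocnemius minus soleus, adjusted p = 0.000748), 0.256 (gastrocnemius minus tibialis anterior, adjusted p = 0.00482) and 0.534 (soleus minus tibialis anterior, adjusted p = 5.1e-08). Myh14 was then also called in male diaphragm minus gastrocnemius (-0.407, adjusted p = 6.59e-06). Its lower level in female diaphragm than in gastrocnemius (-0.61 ± 0.24, adjusted p = 0.0234) and tibialis anterior (-0.56 ± 0.24, adjusted p = 0.037) turned to 0.165 and 0.371 when libraries were scaled by their totals, and the latter was -0.275 (adjusted p = 0.0733) without the libraries low in fibre markers.

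Over the 6 pairs of muscles, 43 of 54 tests of the genes passed in males and 41 of 54 in females. By pair, 8 of the 9 genes passed between diaphragm and gastrocnemius in males and 7 in females, beside 66.7% and 72.5% of all genes tested. Between diaphragm and soleus 8 and 9 passed (50.1% and 57.3% of all genes), and between diaphragm and tibialis anterior 8 and 8 (66.9% and 74.7%). For gastrocnemius and soleus the counts were 7 and 7 (46.4% and 51%), for soleus and tibialis anterior 8 and 7 (46.2% and 57.1%), and for gastrocnemius and tibialis anterior 4 and 3 (12.6% and 16.2%). Scaling by library totals moved the median log2 difference of all genes by -0.221 to 0.814 in males and -0.433 to 0.991 in females. Without the libraries low in fibre markers 48 tests passed in males and 42 in females, and the Myh2 difference between female diaphragm and soleus went from -0.59 ± 0.21 (adjusted p = 0.0157) to -0.438 (adjusted p = 0.0684).

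The 3 genes with the most similar pattern were found for each of the 9 by Pearson's r of mean log2 CPM over the 48 groups, among 12258 genes. These r are a description, since groups share muscles. For Myh7 the most alike were Tnnt1 (r = 0.997), Myl2 (0.996) and Tnnc1 (0.994), which encode slow troponin T, the slow regulatory light chain and slow troponin C. For Myh4 they were Actn3 (0.987), the alpha-actinin of fast fibres, Pvalb (0.986), a calcium buffer of fast fibres, and Cib2 (0.985). For Myh2 they were Smtnl1 (0.976), 4930511M06Rik (0.965) and Myom3 (0.965), an M-line protein, and for Myh1 Dusp22 (0.953), Hnrnpa2b1 (0.923) and Akr1b10 (0.916). For Myh3 they were Alpk3 (0.973), Hspa1l (0.97) and Rnf115 (0.969), and for Myh8 Dnajc2 (0.958), the embryonic light chain gene Myl4 (0.958) and Tceal5 (0.952). For Myh6 they were Tpm2 (0.978), a tropomyosin, Mycbp2 (0.963) and Myot (0.959), for Myh7b Xpo4, Astn2 and Pqlc1 (0.979 to 0.981), and for Myh14 Rrp1 (0.948), Nol3 (0.935) and Lrrc47 (0.925).

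The comparison with age asked how each gene at 12, 18, 21, 24 and 27 months stood against 6 months in the same muscle and sex. At 27 months, 9 of 36 tests of the genes in males were called higher and 1 lower, and in females 10 higher and 2 lower. In gastrocnemius 5 of 9 genes were called higher and 1 lower in males, where 23.3% of all genes were called (10.6% higher, 12.6% lower), and 4 and 1 in females (29.3%; 14.6% higher, 14.6% lower). In tibialis anterior 2 were higher and 0 lower in males (17.8%; 9.97% and 7.81%), and 3 higher and 1 lower in females (21.9%; 12.1% and 9.84%). In soleus 1 was higher in males (2.85%; 1.8% and 1.05%) and 2 in females (18.8%; 10% and 8.74%), and in diaphragm 1 in males (8.65%; 5.13% and 3.52%) and 1 in females (1.61%; 0.624% and 0.988%). The median log2 change of the 9 genes was 0.522 in male and 0.217 in female gastrocnemius, where that of all genes was -0.003 and 0.019, and in the other 6 muscles by sex it ran from -0.028 to 0.413. Of the 72 tests at 27 months 30 had an unadjusted p below 0.05. 

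The earlier ages share their 6-month libraries with these comparisons. In male gastrocnemius 1, 0, 4 and 3 of the 9 genes were called at 12, 18, 21 and 24 months, beside 1.08%, 2.99%, 10.2% and 14.6% of all genes. In female gastrocnemius 1, 4, 5 and 5 were called (0.579%, 9.6%, 15.8% and 19.2%). Gastrocnemius thus had a called gene of the 9 at each age in females and at all but 18 months in males. In male soleus 0, 0, 2 and 2 were called (0.117%, 0.489%, 1.37% and 4.46%), and in female soleus 0, 2, 4 and 4 (0.221%, 5.68%, 22.7% and 23.3%). In male tibialis anterior 0, 1, 1 and 1 were called (0.338%, 1.93%, 6.78% and 15.4%), and in female tibialis anterior 0, 1, 2 and 2 (0.527%, 4.53%, 10.7% and 16.3%). The diaphragm had the fewest: no gene of the 9 in males at these ages (0.0622%, 0.199%, 10.7% and 1.27%), and 0, 0, 0 and 2 in females (0%, 0.222%, 1.53% and 3.33%).

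**Figure D3:**
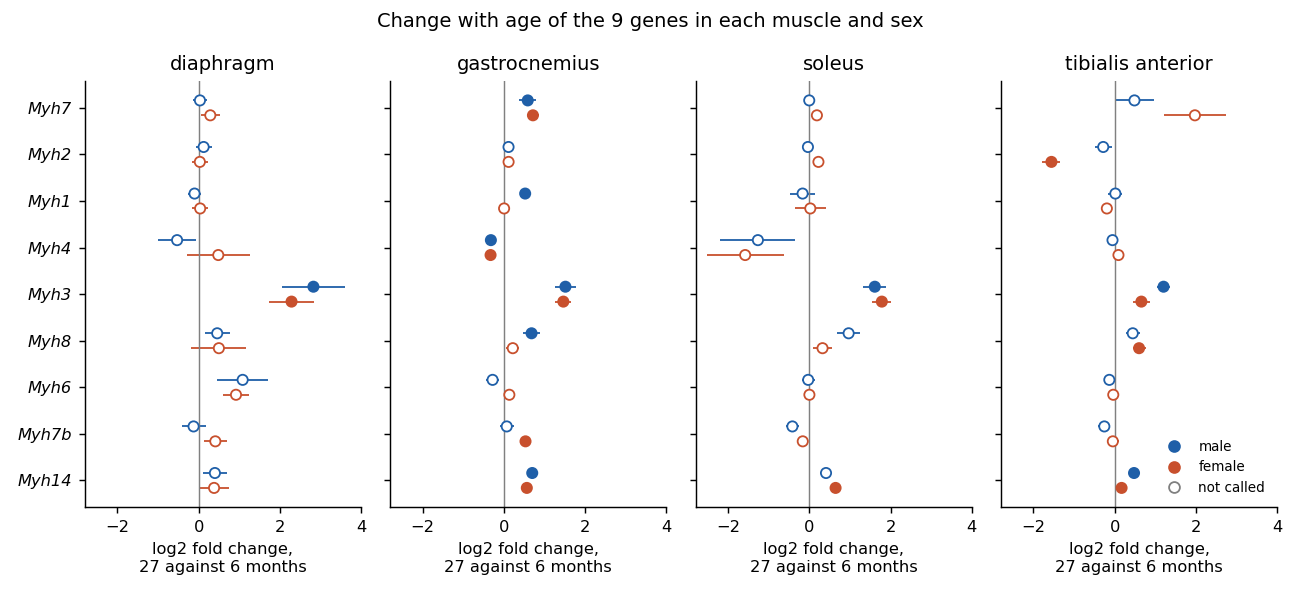
Log2 fold change at 27 against 6 months of the 9 genes in the 4 muscles, with bars of 1 SE (10 and 8 libraries); blue is male, orange female, filled points were called (edgeR, adjusted p below 0.05) and open points were not. Myh3 is filled in all 8 muscles by sex, with changes from 0.66 to 2.83, Myh4 is filled below 0 in gastrocnemius of both sexes, and Myh2 is filled in female tibialis anterior only.

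Embryonic Myh3 was higher at 27 months than at 6 in all 8 muscles by sex, and was called in 21 of its 40 tests over the older ages, each time higher. In gastrocnemius it went from 1.4, 2.82 and 3.73 CPM at 6 months to 5.09, 6.97 and 18.5 CPM at 27 months in males, and from 2.32, 4.01 and 5.7 to 7.56, 12.3 and 16.1 CPM in females. In neither sex did the ages overlap, and the log2 changes were 1.51 ± 0.26 (SE, n = 8 and 10; edgeR adjusted p = 2.1e-05) and 1.46 ± 0.20 (adjusted p = 1.31e-07). In soleus, where its level was highest, Myh3 went from 6.76, 15 and 21.6 CPM to 20.05, 36.7 and 102 CPM in males, with 9 of 10 old libraries above all young ones, and from 14.1, 22.7 and 28.6 to 33.2, 79.1 and 121 CPM in females, with no overlap. The log2 changes were 1.61 ± 0.28 (adjusted p = 0.000278) and 1.78 ± 0.23 (adjusted p = 2.22e-07). In tibialis anterior it went from 1.35, 1.795 and 1.97 to 1.79, 3.8 and 5.915 CPM in males and from 2.54, 3.77 and 5.96 to 4.2, 5.73 and 9.03 CPM in females. Of the 10 old libraries, 9 in males and 4 in females lay above all young ones, and the changes were 1.202 ± 0.168 (adjusted p = 9.38e-07) and 0.66 ± 0.20 (adjusted p = 0.0146).

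In diaphragm Myh3 was low at every age, with a highest library of 3.28 CPM. It went from 0, 0.0853 and 0.472 CPM to 0.0737, 0.484 and 3.28 CPM in males, where 5 of 10 old libraries lay above all young ones, and from 0, 0.0861 and 0.77 to 0.297, 0.76 and 1.93 CPM in females. The log2 changes were 2.83 ± 0.79 (adjusted p = 0.0214) and 2.29 ± 0.56 (adjusted p = 0.0187). Without the libraries low in fibre markers they were 2.08 (adjusted p = 0.0618) in males, a call lost, and 2.14 (adjusted p = 0.0289) in females. The male call was also lost with a term for blocks of consecutive sample numbers (3.01, adjusted p = 0.0979). Markers of satellite and immune cells (Pax7 and Ptprc, 2 of 2 measured) summed to 17.6, 23.1 and 43.7 CPM at 6 months and 14, 55.6 and 133 CPM at 27 months in male diaphragm, and 17, 38.6 and 126 and 32.2, 54.2 and 211 CPM in females; their part in the change of Myh3 was not tested. Pax7 itself, the satellite cell gene, named after its values were seen, was -0.40 ± 0.23 in male (adjusted p = 0.263) and -0.68 ± 0.23 in female diaphragm (adjusted p = 0.124). It fell in 4 of the 6 limb muscles by sex, from -0.46 ± 0.15 in female soleus (adjusted p = 0.0201) to -1.12 ± 0.18 in female tibialis anterior (adjusted p = 7.04e-06).

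The age at which Myh3 was called differed by muscle. In male tibialis anterior and in female gastrocnemius and soleus it was called at every age from 18 months on, in male gastrocnemius and soleus from 21 months on, and in female tibialis anterior and both diaphragms at 27 months only. At 12 months female gastrocnemius read 6.19, 6.98 and 8.75 CPM and female soleus 35.9, 38.9 and 45.2 CPM, above all 6-month libraries, at 0.76 ± 0.21 (adjusted p = 0.074) and 0.83 ± 0.23 (adjusted p = 0.142). Differences between these ages of first call were not tested.

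**Figure D4:**
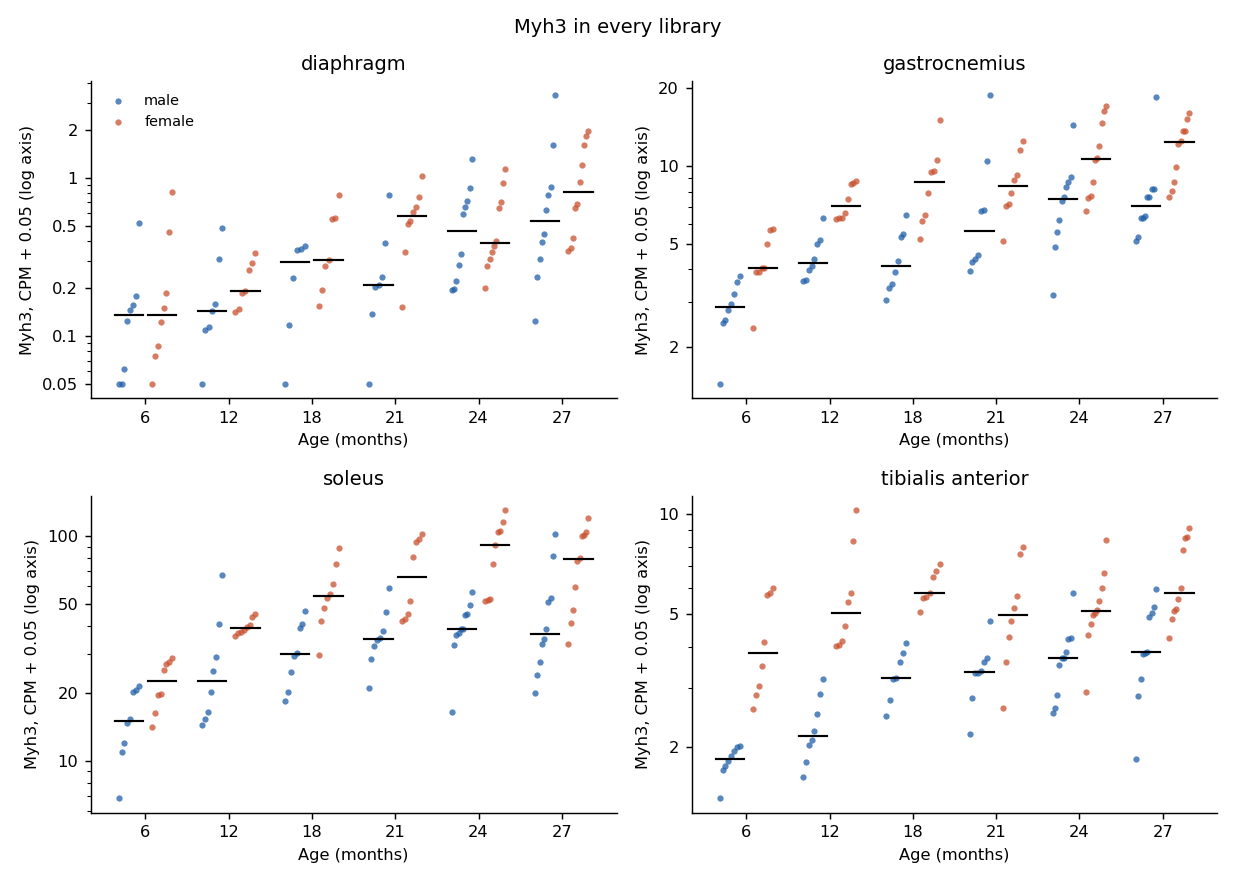
Myh3 in every library, as CPM plus 0.05 on a log axis with a range of its own for each muscle, against age in months; points are libraries sorted by level within a group (blue male, orange female) and black bars are medians. Female soleus goes from a median of 22.7 CPM at 6 months to 91.8 at 24 and 79.1 at 27 months, and libraries of the diaphragm start at 0 CPM.

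Neonatal Myh8 was called higher in 7 of 40 tests. At 27 months it was higher in male gastrocnemius (1.64, 3.28 and 4.63 CPM at 6 months and 3.23, 4.88 and 7.455 CPM at 27; 0.68 ± 0.22, adjusted p = 0.0175) and in female tibialis anterior (3.1, 3.84 and 4.74 and 4.4, 5.52 and 7.415 CPM; 0.60 ± 0.16, adjusted p = 0.00467), with overlapping ages in both. In female tibialis anterior it was called at 24 months as well (4.05, 5.88 and 7.81 CPM; 0.58 ± 0.16, adjusted p = 0.00883), with 6 of 10 libraries above all young ones. In male soleus it was higher at 24 months, at 2.94, 4.73 and 14.2 CPM, with 10 of 10 libraries above all young ones (1.34 ± 0.29, adjusted p = 0.00514), and at 27 months it was 0.97 ± 0.29 (adjusted p = 0.0532). The remaining 3 calls, at intermediate ages, rested on 1 library each: Myh8 in female diaphragm at 24 months was 3.67 ± 0.75 (adjusted p = 0.00225) with replicate 8, which read 109 CPM, and 0.865 (adjusted p = 0.256) without it. Likewise it was 1.18 in male soleus at 21 months and 0.895 (adjusted p = 0.151) without replicate 4, and 0.56 in female tibialis anterior at 21 months and 0.338 (adjusted p = 0.134) without replicate 2.

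Among the adult genes the gastrocnemius changed in both sexes, with Myh4 lower and Myh7 higher. Myh4 went from 44530, 46260 and 50350 CPM to 33240, 37250 and 42620 CPM in males, with no overlap, and from 39470, 43500 and 46830 to 22250, 33710 and 41440 CPM in females, where 9 of 10 old libraries lay below all young ones. The log2 changes were -0.32 ± 0.05 (adjusted p = 4.89e-06) and -0.33 ± 0.06 (adjusted p = 7.83e-05). Both sexes were called lower at 21 and 24 months as well. The summed fibre markers were also lower in old gastrocnemius, at 41000, 43500 and 46300 CPM at 6 months and 35600, 37500 and 41600 CPM at 27 months in males and 39200, 41000 and 43600 and 33800, 36100 and 41700 CPM in females, and their part in the fall of Myh4 was not tested. Myh7 went from 134.1, 179.8 and 240.2 to 107, 258.3 and 437.2 CPM in males, whose old libraries spread on both sides of the young ones, and from 286.7, 439.9 and 504 to 488.3, 651.8 and 992.8 CPM in females. The changes were 0.59 ± 0.21 (adjusted p = 0.0331) and 0.71 ± 0.14 (adjusted p = 0.000102). In males the call was lost with limma-voom (0.449, adjusted p = 0.118) and with a term for blocks of consecutive sample numbers (0.594, adjusted p = 0.0808), and the call at 21 months (0.70 ± 0.22) without replicate 6 of that age (0.621, adjusted p = 0.0713).

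Of the other genes in gastrocnemius, Myh1 rose in males (1417, 1975 and 2828 CPM to 2067, 2903 and 3666 CPM; 0.52 ± 0.13, adjusted p = 0.00239) and was 0.0038 ± 0.12 in females (adjusted p = 0.985). Myh7b rose in females (1.91, 2.73 and 3.23 to 3.05, 3.69 and 4.77 CPM; 0.53 ± 0.11, adjusted p = 0.00022) at 27 months and at each age from 12 months on, and was 0.07 ± 0.17 in males (adjusted p = 0.814). The 12-month call of Myh7b was lost without replicate 4 at 6 months (0.422, adjusted p = 0.0919). The difference of these changes between the sexes was 0.54 ± 0.18 for Myh1 (adjusted p = 0.115) and -0.44 ± 0.21 for Myh7b (adjusted p = 0.259), neither called. As shares, Myh4 went from 92.1% ± 1.05 to 87.9% ± 0.92 in males and from 89.7% ± 0.94 to 86.15% ± 3.05 in females, and Myh1 from 4.07% ± 0.93 to 6.95% ± 0.93 in males.

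In tibialis anterior Myh2 fell in females from 1030, 3015 and 4445 CPM at 6 months to 671.2, 905.1 and 1225 CPM at 27 months. Of 10 old libraries 7 lay below all young ones, and the log2 change was -1.56 ± 0.22 (adjusted p = 6.08e-07). Myh2 was also lower at 18 (-1.07 ± 0.24, adjusted p = 0.00473), 21 (-1.15 ± 0.24, adjusted p = 0.000576) and 24 months (-1.48 ± 0.22, adjusted p = 3.11e-06). It was not called at 12 months, but its mean share of the 4 adult genes was already 3.37% ± 0.97 there. That share was 6.56% ± 2.75 at 6 months, with libraries from 2.14% to 11.5%, and 2.26% ± 0.48 at 27 months. The comparisons of Myh2 with age, and those between sexes and muscles below, share the same 8 female libraries at 6 months. In males Myh2 read 310.4, 717.4 and 1028 CPM at 6 months and 382.3, 524.1 and 955.1 CPM at 27 months (-0.28 ± 0.21, adjusted p = 0.383). The change in males minus that in females was 1.28 ± 0.31 (adjusted p = 0.0136; 1.73% of all genes called), the only sex difference in the change with age that was called among 36 tests, of which 6 had an unadjusted p below 0.05. In diaphragm, gastrocnemius and soleus 0%, 1.6% and 0.855% of all genes were called for such a difference.

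The fall of Myh2 in female tibialis anterior also differed from its change in the other muscles. The change in diaphragm, gastrocnemius and soleus minus that in tibialis anterior was 1.60 ± 0.25 (adjusted p = 1.56e-05; 2.82% of all genes called), 1.68 ± 0.25 (adjusted p = 1.31e-05; 0.35%) and 1.79 ± 0.25 (adjusted p = 2.15e-06; 4.03%). Myh4 took a larger share in female tibialis anterior, 68.75% ± 5.015 at 6 and 75.2% ± 6.67 at 27 months, while Myh4 in CPM was 0.09 ± 0.10 (adjusted p = 0.585). Myh7 there read 1.37, 10.2 and 16 CPM at 6 months and 1.46, 26.9 and 100.3 CPM at 27 months, a log2 change of 1.97 ± 0.76 (adjusted p = 0.055).

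**Figure D5:**
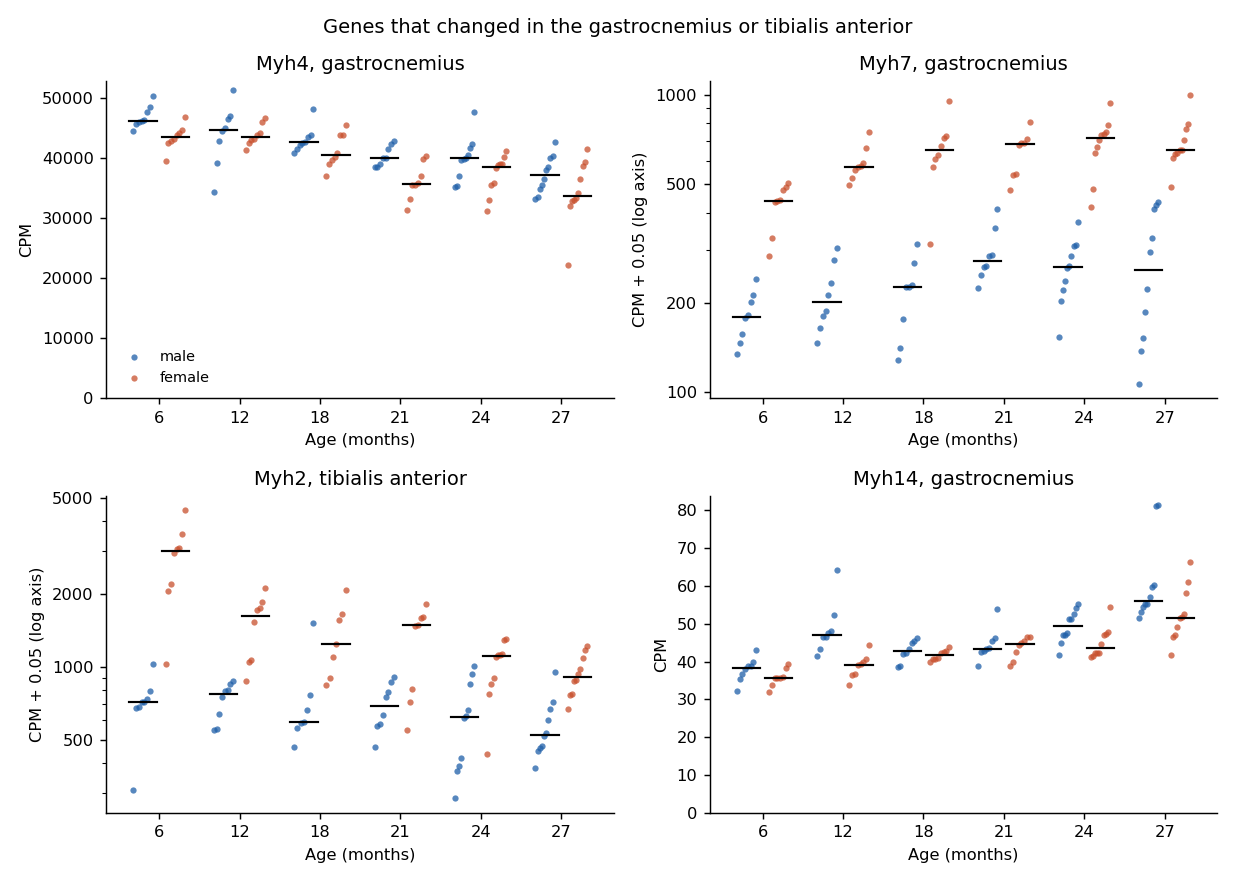
Myh4, Myh7 and Myh14 in gastrocnemius and Myh2 in tibialis anterior against age in months, in CPM on a linear axis from 0 (Myh4, Myh14) or CPM plus 0.05 on a log axis (Myh7, Myh2); points are libraries sorted by level within a group (blue male, orange female) and black bars are medians. Myh2 of female tibialis anterior drops from a median of 3015 CPM at 6 months to 905.1 at 27 months, while the male medians go from 717.4 to 524.1 CPM.

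In soleus and diaphragm none of the 4 adult genes was called at 27 months in either sex. Soleus Myh7 read 3800, 4735 and 6424 CPM at 6 and 3461, 4541 and 6205 CPM at 27 months in males (-0.0022 ± 0.14, adjusted p = 0.998), and 5028, 6627 and 8202 and 6983, 7425 and 8918 CPM in females (0.19 ± 0.07, adjusted p = 0.0732). In female soleus Myh2 was called higher at 21 (0.29 ± 0.10, adjusted p = 0.0302) and 24 months (0.36 ± 0.10, adjusted p = 0.00543), Myh7 higher at 24 months (0.22 ± 0.08, adjusted p = 0.0297) and Myh4 lower at 21 months (-3.31 ± 1.09, adjusted p = 0.0224). The call of Myh2 at 21 months was lost without replicate 5 of that age (0.238, adjusted p = 0.0899), and that of Myh7 without replicate 0 at 6 months (0.172, adjusted p = 0.107). Diaphragm Myh1 and Myh2 changed by -0.10 ± 0.15 and 0.12 ± 0.20 in males and 0.04 ± 0.20 and 0.03 ± 0.19 in females at 27 months, with adjusted p from 0.745 to 0.983. Without the libraries low in fibre markers the changes were -0.15 and 0.03 in males and -0.04 for each in females (adjusted p from 0.496 to 0.939).

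Nonmuscle Myh14 was called higher in 14 of 40 tests and lower in none. In gastrocnemius it went from 32.15, 38.4 and 43.2 to 51.4, 56.15 and 81.4 CPM in males and from 32, 35.7 and 39.3 to 41.8, 51.7 and 66.2 CPM in females, with no overlap in either sex. The changes were 0.70 ± 0.08 (adjusted p = 1.07e-09) and 0.56 ± 0.06 (adjusted p = 1.84e-10). It rose in female soleus (31.9, 38.9 and 45.8 to 42.9, 61.5 and 72.9 CPM; 0.65 ± 0.10, adjusted p = 7.92e-06), where it was called from 18 months on, and was 0.41 ± 0.14 in male soleus (adjusted p = 0.112). In tibialis anterior it was 0.48 ± 0.09 in males (adjusted p = 9.58e-05) and 0.17 ± 0.06 in females (adjusted p = 0.0367), the latter lost without replicate 7 at 27 months (0.132, adjusted p = 0.101). Male gastrocnemius was called at 12, 21 and 24 months as well, and the 21-month call was lost without replicate 6 of that age (0.201, adjusted p = 0.119).

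Myh6 was not called at 27 months in any muscle by sex, and was called once at another age, in female diaphragm at 24 months (1.25 ± 0.31, adjusted p = 0.0149; 9 of 10 libraries above all young ones). In diaphragm it went from 0.104, 0.165 and 0.44 to 0.0391, 0.56 and 0.793 CPM in males (1.08 ± 0.63, adjusted p = 0.277) and from 0.0753, 0.218 and 0.311 to 0.0945, 0.409 and 0.571 CPM in females (0.92 ± 0.31, adjusted p = 0.116). Without the libraries low in fibre markers the changes at 27 months were 1.03 (adjusted p = 0.324) and 0.86 (adjusted p = 0.118). Its change in male diaphragm minus that in male gastrocnemius was 1.36 ± 0.36 (adjusted p = 0.0306; 1.39% of all genes called), and in females the change in diaphragm minus that in tibialis anterior was 0.97 ± 0.28 (adjusted p = 0.0375). The male call was lost with limma-voom and with Bonferroni adjustment. Without the diaphragm libraries low in fibre markers it held (1.312, adjusted p = 0.0273). These Myh6 differences and the 3 Myh2 differences above were the calls among 54 tests of muscle by age in each sex, 1 in males and 4 in females, where 6 and 15 had an unadjusted p below 0.05. Without the diaphragm libraries low in fibre markers the counts were 1 and 10. Calls gained in females between limb muscles were Myh7b in gastrocnemius minus soleus (0.685, adjusted p = 0.00358) and other genes in soleus minus tibialis anterior. The latter were Myh3 (1.147, adjusted p = 0.0356), Myh7 (-1.773, adjusted p = 0.036) and Myh14 (0.496, adjusted p = 0.03). Myh6 and Myh7b were gained in diaphragm minus soleus. With all libraries, in the pairs with no call in males, 2.69%, 0.731%, 0.313%, 0% and 0.131% of all genes were called (diaphragm against soleus, then tibialis anterior, gastrocnemius against soleus, then tibialis anterior, and soleus against tibialis anterior). In females they were 1.53% (diaphragm against gastrocnemius), 1.78% (diaphragm against soleus) and 1.79% (gastrocnemius against soleus).

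Males and females differed in 8 of 36 tests at 6 months, and the slow gene was lower in males. In gastrocnemius Myh7 was 134.1, 179.8 and 240.2 CPM in males and 286.7, 439.9 and 504 CPM in females, with no overlap and a log2 difference, male minus female, of -1.25 ± 0.19 (edgeR adjusted p = 1.18e-07), and Myh7b was lower by less (-0.51, adjusted p = 0.00995). In this muscle 19.8% of all genes were called. In soleus, where 8.41% of all genes were called, males had less Myh7 (-0.53, adjusted p = 0.00104) and Myh8 (-1.32, adjusted p = 0.000818) and more Myh2 (0.51, adjusted p = 0.000491) and Myh1 (1.12, adjusted p = 0.0425). In tibialis anterior (13.6% of all genes) males had less Myh2 (-1.98 ± 0.24, adjusted p = 1.4e-10) and Myh3 (-1.24, adjusted p = 1.68e-06). None of the 9 was called in diaphragm (0.512% of all genes), where 2 of 9 had an unadjusted p below 0.05.

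At 27 months 12 of 36 tests between the sexes passed. Myh7 was again lower in males in gastrocnemius (-1.35 ± 0.17, adjusted p = 2.63e-10; 25.9% of all genes called) and soleus (-0.70 ± 0.11, adjusted p = 5.21e-07; 7.55%), and also in tibialis anterior (-2.97 ± 0.63, adjusted p = 0.000124; 25.2%), at medians of 2.01 CPM in males and 26.9 CPM in females. Myh3 was lower in males in all 3 limb muscles, by -0.56 ± 0.21 in gastrocnemius (adjusted p = 0.0398), -0.72 ± 0.24 in soleus (adjusted p = 0.0456) and -0.69 ± 0.17 in tibialis anterior (adjusted p = 0.00142). At 6 months Myh7 in tibialis anterior was already -1.48, though not called (edgeR adjusted p = 0.158). Myh3 was then -0.63 in gastrocnemius (adjusted p = 0.0583) and -0.56 in soleus (adjusted p = 0.205), also not called. For these gene and muscle pairs the sex difference in the change with age was not called (edgeR adjusted p from 0.448 to 0.934). Myh14 was higher in males in gastrocnemius (0.22 ± 0.06, adjusted p = 0.00561) and tibialis anterior (0.19 ± 0.07, adjusted p = 0.0391). In diaphragm none of the 9 was called (3.55% of all genes). Scaling by library totals moved the median of all genes in the comparisons of the sexes by -0.243 to 0.194.

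Partners of the heavy chains in the sarcomere moved in gastrocnemius as well. There 10.6% of all genes were called higher and 12.6% lower in males at 27 months, and 14.6% and 14.6% in females. Of 11 fast partners, genes of fast light chains, troponins, calcium handling and the Z-disc, 9 fell and none rose in males at 27 months and 11 fell in females, at medians of -0.23 and -0.308. Pvalb fell by 0.399 (SE 0.055, adjusted p = 2.05e-07) in males and Actn3 by 0.446 (SE 0.057, adjusted p = 2.62e-08) in females. Of 10 slow partners 5 rose in males and 9 in females, none fell, and the medians were 0.444 and 0.535, with Tnni1, slow troponin I, at 0.69 ± 0.21 (adjusted p = 0.0151) and 0.96 ± 0.14 (adjusted p = 5.13e-07). In female tibialis anterior 4 slow partners rose and 2 fell, beside 12.1% and 9.84% of all genes. Tnni1 was at 1.64 ± 0.48 there (adjusted p = 0.00985), and elsewhere at most 2 partners of either list were called in a direction.

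Genes of development and denervation, 9 of 11 listed being measured, rose beside Myh3. In males 2, 7, 3 and 7 of the 9 rose at 27 months in diaphragm, gastrocnemius, soleus and tibialis anterior, in females 0, 7, 3 and 4, and none fell. Of all genes 5.13%, 10.6%, 1.8% and 9.97% were called higher in these muscles in males, and 0.624%, 14.6%, 10% and 12.1% in females. The transcription factor gene Runx1, which responds to loss of the nerve, rose by 2.16 ± 0.19 (adjusted p = 4.04e-12) in male and 1.95 ± 0.155 (adjusted p = 1.04e-13) in female gastrocnemius, and Myog, the myogenin gene, by 1.23 ± 0.275 (adjusted p = 0.000679) in male gastrocnemius. Chrng, the fetal subunit of the acetylcholine receptor, also named after its values were seen, had a median of 0.0399 CPM at 6 months and 0.839 CPM at 27 months in female gastrocnemius and 0.0164 and 0.867 CPM in female tibialis anterior. Myh3 and these genes were not called together in every muscle: in female diaphragm Myh3 was called and none of the 9 was.

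Of 14 genes of the thick filament and M-line 5 rose and 3 fell in male and 3 and 4 in female gastrocnemius, and 10 rose and 1 fell in female soleus, with Myom3, an M-line gene of slow and type 2A fibres, at 0.98 ± 0.15 in male (adjusted p = 3.14e-06) and 1.13 ± 0.12 in female gastrocnemius (adjusted p = 3.53e-10). In the other 5 muscles by sex at most 3 were called in a direction. Of all genes 10.6% were called higher and 12.6% lower in male gastrocnemius, 14.6% and 14.6% in female gastrocnemius and 10% and 8.74% in female soleus. Of 14 regulators of heavy chain genes 0 to 3 rose and 0 to 5 fell in a muscle by sex. Of all genes 0.624% to 14.6% were called higher and 0.988% to 14.6% lower. Sox6, a repressor of slow genes, fell in gastrocnemius of males (-0.33 ± 0.06, adjusted p = 9.35e-06) and females (-0.28 ± 0.07, adjusted p = 0.00291). Of the other class II myosins, Myh13 fell in male gastrocnemius (-0.60 ± 0.13, adjusted p = 0.000598) and soleus (-0.59 ± 0.16, adjusted p = 0.0264), Myh9 and Myh10 rose in male diaphragm and in female gastrocnemius and soleus, and Myh10 fell in female tibialis anterior (-0.39 ± 0.10, adjusted p = 0.00344).

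Tendon markers (Tnmd, Scx and Fmod, 3 of 3) were lower in old than in young limb muscles, at 202, 243 and 265 CPM at 6 and 95.1, 138 and 175 CPM at 27 months in male and 254, 286 and 327 and 157, 189 and 336 CPM in female gastrocnemius. Nerve markers (4 of 4) were 58.3, 67.7 and 98.1 and 43.6, 52.9 and 112 CPM in male gastrocnemius. Liver markers in female tibialis anterior were 0.277, 8.99 and 19.1 CPM at 6 months and 0.907, 67.9 and 572 CPM at 27 months, and the part of these in the changes of the heavy chain genes was not tested. Between Myh3 and Myh2, at chr11:67112461-67120080, lies 2310065F04Rik, a gene named after its values were seen. It fell at 27 months in male (-0.51 ± 0.15, adjusted p = 0.0102) and female gastrocnemius (-0.88 ± 0.09, adjusted p = 1.38e-10), in male diaphragm (-0.78 ± 0.24, adjusted p = 0.0343) and in female tibialis anterior (-0.43 ± 0.11, adjusted p = 0.00281).

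Myh4 in soleus and Myh7 in tibialis anterior were set against their partners across libraries of a muscle. Over all ages Myh4 in soleus ran from 8.06 to 2138 CPM in males, a 265-fold range, and from 8.81 to 1909 CPM in females, a 217-fold range, whereas in gastrocnemius its range was 1.55-fold and 2.1-fold. Across male soleus libraries (n = 52), log2 Myh4 rose with the mean log2 level of the fast partners, with Pearson's r = 0.832 and Spearman's rho = 0.85, and across female ones (n = 51) r = 0.779 and rho = 0.769. Myh7 in tibialis anterior ran from 1.07 to 20.25 CPM in males and 1.37 to 100.3 CPM in females, and rose with the mean of the slow partners, with r = 0.748 and rho = 0.542 in males (n = 51) and r = 0.893 and rho = 0.895 in females (n = 51). These 4 relations were chosen after the data were seen. The permutation p, adjusted over the 4, was 1e-05 for each r, the smallest the permutations could give, and 1e-05 to 5e-05 for rho. Without the 2 libraries farthest from the median of the partners, r was 0.813, 0.779, 0.572 and 0.876. With the mean of each age taken out, r was 0.864, 0.741, 0.736 and 0.902, and within single ages it ran from 0.055 to 0.981.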

How the data were processed

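Total RNA was sequenced strand-specifically (paired reads of 76 bases), and the counts per gene are those the authors deposited, made in ArrayStudio with a gene model based on RefSeq on mm10, whose versions the sources used here leave out. Of 25091 rows 633 with repeated symbols were left out. No library doubled another of its own group, and pairs from different groups were not compared for this. Counts were fitted with edgeR 4.0.16 in R 4.3.3 (TMM, filterByExpr, 14487 to 16613 genes per fit), as designed per muscle and sex for age, per sex at 6 months for muscles, and per muscle for sexes. Standard errors are the log2 difference over the root of F. CPM used TMM factors over all 407 libraries (38583802 to 300089909 counts), with 0.05 CPM added for logs. Tests were checked on simulated counts. The 9 genes are all named. The 3 genes most alike are named for each, among genes with a mean of at least 1 CPM. Of each list (fast partners, slow partners, thick filament and M-line, developmental and denervation, regulators, other class II myosins) up to 3 called genes of largest change per muscle and sex could be named. Members and lists were chosen with earlier results of these data known. The relations, Pax7, Chrng and 2310065F04Rik were chosen after values were seen. Alternatives were DESeq2 1.42.0, limma 3.58.1 (voom), DESeq2's size factors, library totals (added), no filter, Bonferroni, a fold limit of 1.5, a replicate block, blocks of sample numbers, and libraries left out.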

Additional observations from a re-analysis of the deposited data

Results flagged for a closer look

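Of 432 sets of libraries (9 genes in 48 groups), 53 held 1 library that stood apart from the rest by Dixon's test, and chance alone gives about 5% of sets. No explanation was tested.

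The slow gene Myh7 was apart at the low end with 172 CPM in female diaphragm at 27 months (replicate 0), 316 CPM in female gastrocnemius at 18 months (replicate 2) and 156 CPM in male diaphragm at 6 months (replicate 2). It was apart at the high end with 714 CPM in male diaphragm at 18 months (replicate 4), 5.12 CPM in male tibialis anterior at 12 months (replicate 6), 18.2 CPM in male tibialis anterior at 18 months (replicate 5) and 11.4 CPM in male tibialis anterior at 6 months (replicate 2). The type 2A gene Myh2 was apart at the low end with 1180 CPM in female gastrocnemius at 27 months (replicate 3), 436 CPM in female tibialis anterior at 24 months (replicate 8), 2640 CPM in male diaphragm at 12 months (replicate 2), 917 CPM in male diaphragm at 27 months (replicate 8), 1080 CPM in male diaphragm at 6 months (replicate 2), 5500 CPM in male soleus at 24 months (replicate 8) and 310 CPM in male tibialis anterior at 6 months (replicate 6). It was apart at the high end with 1520 CPM in male tibialis anterior at 18 months (replicate 4). The type 2X gene Myh1 was apart at the low end with 2070 CPM in female diaphragm at 27 months (replicate 0), 354 CPM in female soleus at 18 months (replicate 4), 80.2 CPM in female soleus at 24 months (replicate 1), 3580 CPM in male diaphragm at 12 months (replicate 2) and 2640 CPM in male diaphragm at 6 months (replicate 2). The type 2B gene Myh4 was apart at the low end with 13.8 CPM in female diaphragm at 27 months (replicate 8), 22200 CPM in female gastrocnemius at 27 months (replicate 0) and 15.5 CPM in male soleus at 21 months (replicate 1). It was apart at the high end with 649 CPM in female diaphragm at 6 months (replicate 5) and 48100 CPM in male gastrocnemius at 18 months (replicate 6). The embryonic gene Myh3 was apart at the low end with 2.32 CPM in female gastrocnemius at 6 months (replicate 4), 1.4 CPM in male gastrocnemius at 6 months (replicate 6), 16.5 CPM in male soleus at 24 months (replicate 8) and 1.35 CPM in male tibialis anterior at 6 months (replicate 6). It was apart at the high end with 18.5 CPM in male gastrocnemius at 27 months (replicate 9). The neonatal gene Myh8 was apart at the high end with 109 CPM in female diaphragm at 24 months (replicate 8), 9.41 CPM in female gastrocnemius at 24 months (replicate 3), 8.53 CPM in female soleus at 21 months (replicate 5), 1.35 CPM in male diaphragm at 6 months (replicate 0) and 14.2 CPM in male soleus at 24 months (replicate 8). The alpha gene Myh6 was apart at the low end with 2.11 CPM in female tibialis anterior at 21 months (replicate 0), 0.0391 CPM in male diaphragm at 27 months (replicate 8), 2.04 CPM in male tibialis anterior at 21 months (replicate 7) and 1.77 CPM in male tibialis anterior at 27 months (replicate 5). It was apart at the high end with 4.39 CPM in male diaphragm at 12 months (replicate 0) and 6.46 CPM in male diaphragm at 24 months (replicate 0). The ancient slow gene Myh7b was apart at the low end with 1.3 CPM in female diaphragm at 21 months (replicate 0), 0.425 CPM in female diaphragm at 27 months (replicate 0), 0.728 CPM in female diaphragm at 6 months (replicate 2), 0.0783 CPM in male diaphragm at 6 months (replicate 2) and 1.44 CPM in male gastrocnemius at 21 months (replicate 3). The nonmuscle gene Myh14 was apart at the low end with 5.55 CPM in female diaphragm at 21 months (replicate 0), 9.09 CPM in female diaphragm at 24 months (replicate 3), 2.06 CPM in female diaphragm at 27 months (replicate 0), 6.97 CPM in male diaphragm at 27 months (replicate 6), 0.809 CPM in male diaphragm at 6 months (replicate 2) and 30.6 CPM in male soleus at 24 months (replicate 8). It was apart at the high end with 54.5 CPM in female gastrocnemius at 24 months (replicate 2).

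Among the low libraries of the diaphragm, those low in fibre markers (male replicate 2 at 6 months and replicate 6 at 27 months, female replicate 2 at 6 months, replicate 0 at 21 and at 27 months and replicate 3 at 24 months) came up for 1 to 5 genes each.

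In 6 comparisons the change from 6 to 27 months differed between muscles or sexes by the test of the difference. Those of Myh2 in females were 1.6, 1.68 and 1.79 (diaphragm, gastrocnemius and soleus minus tibialis anterior), those of Myh6 were 1.36 (male diaphragm minus gastrocnemius) and 0.97 (female diaphragm minus tibialis anterior), and that of Myh2 in tibialis anterior between males and females was 1.28.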

How the results depend on the processing

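Of 167 called differences, 167 were called in the same direction with DESeq2's size factors, 166 with no filter, 165 with DESeq2, 156 with limma-voom, 150 with library totals (14 lost, 3 reversed), 136 with the fold limit, 94 with Bonferroni, 66 of 69 with blocks of sample numbers and 90 of 93 without the diaphragm libraries low in fibre markers. With library totals the muscle differences turned to 0.116 for Myh1 (male, diaphragm minus tibialis anterior), 0.165 for Myh14 (female, diaphragm minus gastrocnemius) and 0.371 for Myh14 (female, diaphragm minus tibialis anterior), and with DESeq2 that of Myh4 (female, diaphragm minus soleus) was 1.954. With Bonferroni the counts went from 10 to 6 for age in males, 12 to 5 in females, 8 to 3 for sex at 6 months, 1 to 0 for sex by age and 1 to 0 for muscle by age in males. The fold limit left 5 of the 8 for sex. Muscle by age in males was 0 with limma-voom and 3 with DESeq2, and in females 9 with DESeq2 and 10, from 4, without the diaphragm libraries low in fibre markers. The causes were not tested, apart from the stricter limits. With the farthest library left out, the counts were 10 and 11 for age in males and females. Same-numbered libraries of 2 ages had a median r of 0.031 over 939 pairs, with 359 over 0.1, and those of diaphragm and a limb muscle medians of -0.059 to 0.07. Same-numbered libraries of 2 limb muscles did vary together, with medians of 0.212 to 0.403, but not in every pair (12 to 14 of 16 at 6 months and 13 to 18 of 20 at 27 months were over 0.1), and no label used here ties them to a mouse. With the replicate block the counts were 11 and 13 for age, 43 and 41 for muscles, 1 and 4 for muscle by age, 7 for sex and 1 for sex by age, and 164 of 167 calls held. All 64 shares stood within 1 SD without division by length. Depth limits Myh3 and Myh6 in the diaphragm, where levels near the limit of 3 counts were not resolved.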
